A study of Mus musculus with 3 samples.

Results

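The genes described here code for the core proteins of 10 proteoglycans of the extracellular matrix and the cell surface: *Dcn*, *Bgn*, *Lum*, *Vcan*, *Hspg2*, *Sdc1*, *Sdc2*, *Sdc3*, *Sdc4* and *Gpc1*. They were chosen by name, with earlier results of these data known. The array read them with 15 probes, found through the RefSeq accession of each probe, among 22911 genes that could be named this way. Their mRNA levels were compared over 3 cell lines with 1 array each: Colon26, a murine colon adenocarcinoma line of BALB/c origin, and its sublines LuM1, labelled high-metastatic, and NM11, labelled low-metastatic. All 3 lines are labelled female, grew in RPMI1640 medium with 10% FBS and antibiotics, received no other agent, and were harvested as whole cultures after 3 days. The study asked how the transcriptome of LuM1 cells differed from that of the slowly metastatic lines. LuM1 and NM11 are each a single cultured subline, so a difference between lines cannot be told apart from a difference between the cultures, and with 1 array per line no difference had a replicate check and no test was run.

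Proteoglycans are proteins to which long, negatively charged glycosaminoglycan chains are attached. The small leucine-rich members (decorin, biglycan, lumican) bind collagen fibrils and growth factors, versican fills the matrix together with hyaluronan, and perlecan, the product of *Hspg2*, is built into basement membranes. Syndecans span the cell membrane and glypicans are anchored to its outer face by a lipid, and both carry heparan sulfate chains that hold growth factors at the cell surface. In the colon, syndecan-1 is known from epithelial cells, whereas decorin, biglycan, lumican and versican are known mainly from stromal cells.

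Between 49.9% and 53.8% of the probes on an array passed the scanner software's call of well above background, and none was saturated. Signals are given after scaling each array to a 75th percentile of 585.1, with the error that the scanner software assigned to the spot. Where a probe failed to reach the well-above-background call, its level on that array is only a bound, set at the dimmest signal that reached the call (26.4 in Colon26, 20.1 in LuM1 and 19.6 in NM11 cells) or at the signal of the probe if that was larger. The ratio is then written as at least so many-fold. No ratio was formed where both arrays were dim, or where the detected signal did not exceed the bound of the other array. A gene was called higher or lower at a ratio of at least 2-fold, which is a rule of size only. In these whole cultures, fewer cells that express a gene and less mRNA per cell cannot be told apart. Of 8 colon epithelium markers, 4 (*Cdh1*, *Krt18*, *Krt19* and *Vil1*) were well above background on no array, and *Epcam* was so in LuM1 cells alone (28.0 ± 5.18), whereas *Vim*, a mesenchymal filament gene, had signals of 102137, 80065 and 98371 in Colon26, LuM1 and NM11 cells. The other 3 epithelial markers passed the detection call in all lines. *Cdx2*, an intestinal transcription factor, had signals of 443, 232 and 167 in Colon26, LuM1 and NM11 cells. *Krt20*, an intestinal keratin, had 651 ± 65.4, 54.5 ± 7.03 and 157 ± 16.3, and was 11.9-fold lower in LuM1 and 4.14-fold lower in NM11 than in the parental cells (the 2.88-fold difference between the sublines was lost after scaling to *Hprt* and with normexp background correction). *Krt8*, a simple epithelial keratin, had 28.9 ± 6.36, 108 ± 11.6 and 37.1 ± 5.59, with LuM1 3.72-fold and 2.90-fold above the other lines, calls lost with normexp. Against the labelled origin, colon adenocarcinoma, an epithelial tumour, the array thus detected some of these markers and not others.

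Of the 10 genes, 4 matrix and surface proteoglycan genes, *Dcn*, *Bgn*, *Vcan* and *Sdc3*, exceeded 2-fold in LuM1 cells over either other line, and *Gpc1* was more than 2-fold below either. Of 14828 genes of the array, 7.33% were higher and 4.03% lower in LuM1 cells in this way. *Dcn* was the single member that was also higher in NM11 than in Colon26 cells. *Hspg2*, *Sdc1* and *Sdc2* stayed within 2-fold between every pair of lines, *Sdc4* was higher in LuM1 than in Colon26 cells, and *Lum* was not well above background on any array. Of the 10 members, 7 were well above background in Colon26 cells, 9 in LuM1 cells and 8 in NM11 cells. Among all 22911 named genes, 13032, 13718 and 13548 were so in the same order.

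**Figure D1:**
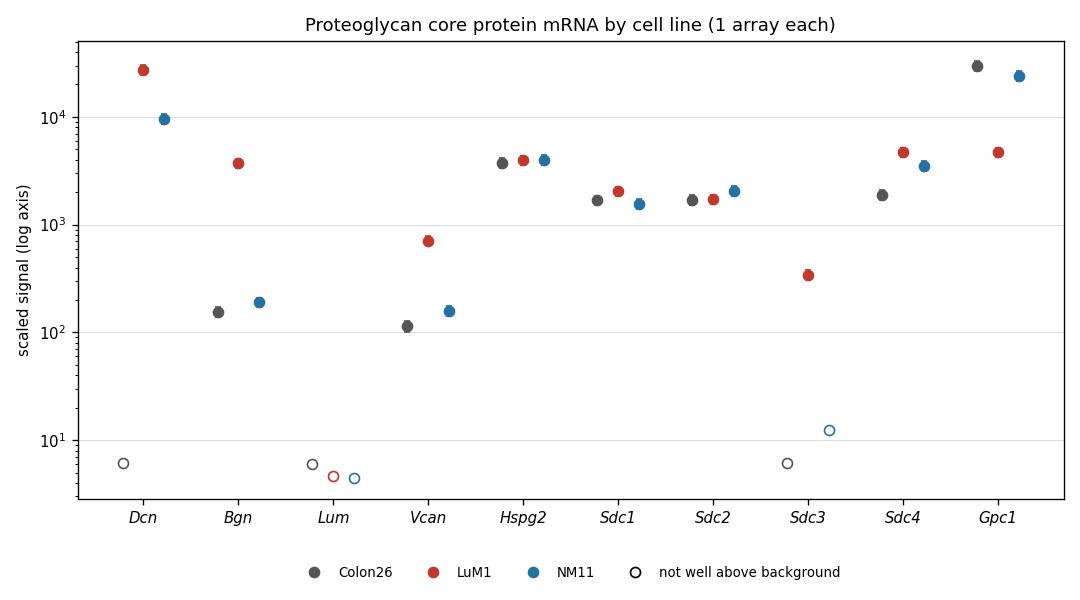
Scaled signal (log axis) of the brightest probe, by average log2 signal, for each of the 10 genes, 1 array per cell line. Bars are the scanner error, which is about the height of the symbols or less, and open circles were not well above background. *Dcn* rose from an undetected 6.07 in Colon26 cells to 27503 in LuM1 cells, while *Gpc1* was 29764 in Colon26 and 4675 in LuM1 cells.

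Among the small leucine-rich members, the decorin gene *Dcn* was read by 1 probe. Its signal was 6.07 ± 6.10 and not above background in Colon26 cells, 27503 ± 2750 in LuM1 cells and 9599 ± 960 in NM11 cells. Both sublines were thus far above the parental line, with LuM1 the highest. The ratio to Colon26 was at least 1041-fold in LuM1 cells (log2 bound 10.02) and at least 363-fold in NM11 cells (log2 bound 8.51). LuM1 cells were 2.87-fold above NM11 cells, which is 1.52 on the log2 scale (scanner error 0.20). Decorin is abundant in fibroblasts, and of 7 fibroblast markers 6 were well above background in Colon26 cells and all 7 in LuM1 and NM11 cells. The summed signal of these markers was 168462 in Colon26, 108021 in LuM1 and 209995 in NM11 cells. Single markers went different ways: *Thy1* was not above background in Colon26 cells (5.26) and reached 19560 in LuM1 and 15416 in NM11 cells, *Pdgfra* was 218, 3965 and 1286 in the same order, and the collagen gene *Col1a2* was 59896, 49.6 and 85275. *Col3a1*, another collagen gene, was 294 ± 29.9, 1170 ± 117 and 2655 ± 265, which put LuM1 3.98-fold and NM11 9.04-fold over Colon26. NM11 exceeded LuM1 cells 2.27-fold in *Col3a1*, a call lost after scaling to *Hprt* and with the authors' processed values. Their part in the *Dcn* result was not tested.

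The biglycan gene *Bgn*, whose product resembles decorin, was read by 1 probe, detected well above background in every line. The signal was 156 ± 16.6 in Colon26, 3725 ± 373 in LuM1 and 191 ± 19.6 in NM11 cells. LuM1 cells stood apart from the other lines, which lay close together. LuM1 cells were 23.9-fold above Colon26 cells (log2 ratio 4.58, scanner error 0.21) and 19.5-fold above NM11 cells (log2 ratio 4.29, error 0.21). The ratio of NM11 to Colon26 cells was 1.23-fold, a log2 ratio of 0.29 that exceeded its scanner error of 0.21 by little. *Lum*, the lumican gene, had signals of 6.04, 4.68 and 4.43 in Colon26, LuM1 and NM11 cells, none of them above background, so it has no ratio.

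The array held 12 other small leucine-rich proteoglycan genes, and 7 of these were well above background in no line. Among all 22911 named genes, 8083 were so. Of the 4 with a ratio of LuM1 to Colon26, 1 was higher (*Prelp*) and 2 were lower (*Ogn* and *Omd*). Over all genes, 13.1% were higher and 11.8% lower in this comparison. *Ogn*, coding for osteoglycin, went opposite to *Dcn* in LuM1 cells: its signal was 1541 ± 154 in Colon26 and 840 ± 84.1 in NM11 cells and not well above background in LuM1 cells (5.41). The LuM1 level was at least 76.6-fold below that of Colon26 and at least 41.7-fold below that of NM11 cells. *Omd*, coding for osteomodulin, was 400 ± 40.3 in Colon26, 186 ± 19.0 in NM11 and 4.07 in LuM1 cells, again not above background in the last. LuM1 cells lay at least 19.9-fold below Colon26 and at least 9.25-fold below NM11 cells, and NM11 was 2.15-fold below Colon26 cells, a call lost with normexp background correction. *Prelp*, whose product binds collagen and basement membrane, followed the pattern of *Dcn*, with 37.3 ± 6.57 in Colon26, 1016 ± 102 in LuM1 and 867 ± 86.7 in NM11 cells, a ratio to Colon26 of 27.3-fold and 23.2-fold. Its dimmer probe gave bounds of 1.63-fold and 1.64-fold. *Podnl1*, related to podocan, was lowest in NM11 cells (580 ± 58.2), 2.82-fold below Colon26 and 2.44-fold below LuM1 cells (the LuM1 signal was 1417 and the Colon26 signal 1636).

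Versican, the product of *Vcan*, is a large chondroitin sulfate proteoglycan that is spliced into several forms. The array read it with 3 probes. The brightest, by average log2 signal, gave 114 ± 12.8 in Colon26, 712 ± 71.3 in LuM1 and 159 ± 16.4 in NM11 cells. LuM1 cells were thereby 6.23-fold above Colon26 cells (log2 ratio 2.64, scanner error 0.22) and 4.49-fold above NM11 cells (log2 ratio 2.17, error 0.21), and NM11 was 1.39-fold above Colon26 cells (log2 ratio 0.47, error 0.22). A second probe was at 1554 ± 155 in LuM1 cells and 149 ± 15.6 in NM11 cells and not above background in Colon26 cells (6.19), so that LuM1 was at least 58.8-fold and NM11 at least 5.66-fold above Colon26 cells and LuM1 10.4-fold above NM11 cells. The remaining probe gave 5.96 in Colon26 cells (not above background), 176 ± 18.2 in LuM1 and 23.1 ± 4.96 in NM11 cells, a ratio of at least 6.65-fold over Colon26 and of 7.59-fold over NM11 cells. All 3 probes put LuM1 highest. For NM11 against Colon26 cells, a single probe passed 2-fold. The remaining probe has no such ratio, since its NM11 signal of 23.1 lay below the Colon26 bound of 26.4.

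**Figure D2:**
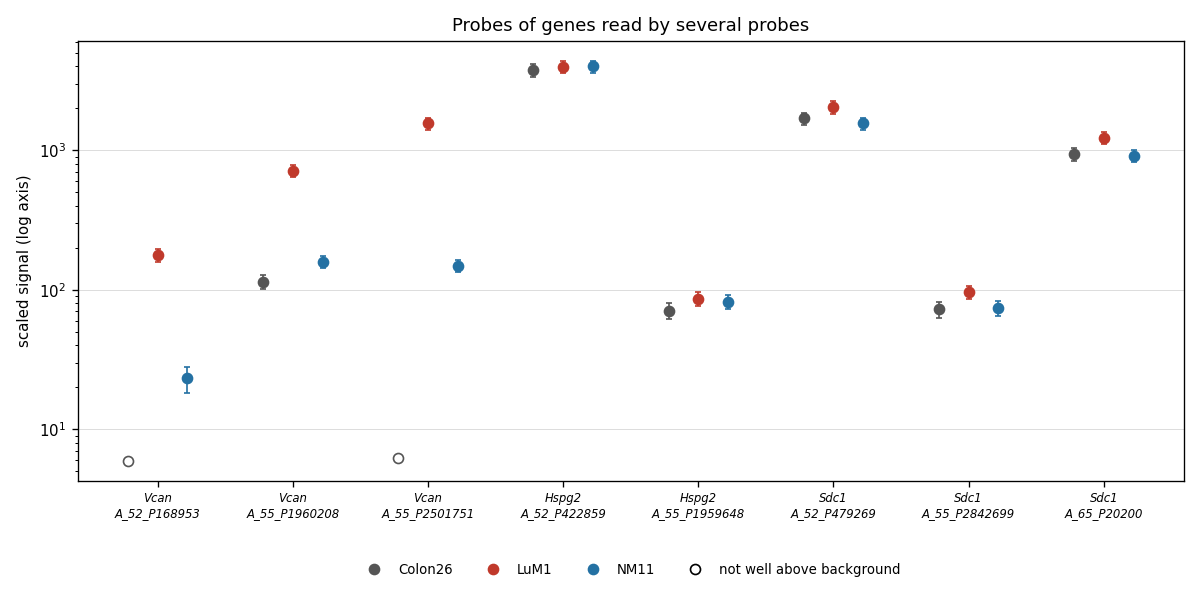
Scaled signal (log axis) of every probe of the 3 members that were read by several probes, with scanner error bars and 1 array per line; open circles were not well above background. The 3 *Vcan* probes all had the highest signal in LuM1 cells (176, 712 and 1554), whereas the 2 *Hspg2* and 3 *Sdc1* probes were within 2-fold between lines.

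Of 10 other chondroitin sulfate proteoglycan genes, 6 were well above background in no line, *Acan* (aggrecan), *Ncan* (neurocan) and *Bcan* (brevican) among them. Among all 22911 named genes, 8083 were so. *Srgn*, coding for serglycin, a proteoglycan of secretory granules, was measured in LuM1 cells alone, at 2494 ± 249 against 5.57 in Colon26 and 5.58 in NM11 cells, and was at least 94.4-fold and at least 127-fold higher there. Serglycin is known from leukocytes: of 5 leukocyte markers, 3 were well above background in each line, *Ptprc* and *Adgre1* in none, and their summed signal was 5893 in Colon26, 12772 in LuM1 and 5233 in NM11 cells. *Cd68*, coding for a lysosomal glycoprotein of macrophages, carried most of that difference, with 172, 5251 and 299. *Itgam* (5027, 6818 and 4251) and *Csf1r* (682, 691 and 675) were within 2-fold between lines at this scaling. *Itgam* passed 2-fold for LuM1 over NM11 after scaling to *Hprt* and with the authors' processed values. The part of these markers in the *Srgn* result was not tested. *Cspg4*, coding for the surface proteoglycan NG2, was highest in Colon26 cells (1678 ± 168), 9.45-fold lower in NM11 cells (178 ± 18.3), and not well above background in LuM1 cells (22.2), a fall of at least 75.7-fold.

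Perlecan, the heparan sulfate proteoglycan of basement membranes, had almost the same mRNA level in all lines. The brighter *Hspg2* probe gave 3744 ± 374 in Colon26, 3978 ± 398 in LuM1 and 3990 ± 399 in NM11 cells, and the differences stayed within the scanner error (log2 ratios of 0.09 for either subline over Colon26, error 0.20). The dimmer probe gave 70.5 ± 9.33, 86.2 ± 9.77 and 82.0 ± 9.28 in the same order, with a ratio of 1.22-fold for LuM1 over Colon26 cells that was just beyond the error (log2 ratio 0.29, error 0.25). *Agrn*, coding for agrin of basement membranes, had signals of 4094, 4003 and 4220 (log2 ratios of -0.03 and 0.04 over Colon26). *Col18a1*, coding for collagen XVIII, a basement membrane collagen with heparan sulfate chains, differed from these: 784 ± 78.6 in Colon26, 20400 ± 2040 in LuM1 and 1526 ± 153 in NM11 cells. LuM1 cells were 26.0-fold above Colon26 and 13.4-fold above NM11 cells. *Tgfbr3*, coding for betaglycan, a surface co-receptor of TGF-beta, was higher in both sublines, with 1611, 5137 and 4806 and ratios to Colon26 of 3.19-fold and 2.98-fold. Of the 8 other heparan sulfate proteoglycan genes on the array, 4 (the glypican genes *Gpc2*, *Gpc4*, *Gpc5* and *Gpc6*) were well above background in no line. Among all 22911 named genes, 8083 were in no line. *Gpc3* was well above background in LuM1 cells alone (25.6).

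The syndecan genes did not move together. *Sdc1* was read by 3 probes, and the brightest gave 1693 ± 169 in Colon26, 2034 ± 203 in LuM1 and 1557 ± 156 in NM11 cells. LuM1 was slightly the highest, by 1.20-fold over Colon26 (log2 ratio 0.26, error 0.20) and 1.31-fold over NM11 cells (log2 ratio 0.39, error 0.20), and NM11 and Colon26 cells were within the error of each other (log2 ratio -0.12). The other *Sdc1* probes gave 1.31-fold and 1.33-fold over Colon26 cells and 1.34-fold and 1.30-fold over NM11 cells, so all 3 probes ordered the lines with LuM1 on top and none reached 2-fold. *Sdc2*, coding for the syndecan of mesenchymal cells, gave 1695 ± 170 in Colon26, 1726 ± 173 in LuM1 and 2062 ± 206 in NM11 cells. Colon26 and LuM1 cells were within the scanner error of each other (log2 ratio 0.03), and NM11 was 1.22-fold above Colon26 cells. LuM1 was below NM11 cells by a log2 ratio of -0.26, beyond the error of 0.20.

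*Sdc3*, coding for a syndecan best known from neural cells, was measured in LuM1 cells alone, at 341 ± 34.4. In Colon26 cells (6.11 ± 5.98) and NM11 cells (12.3 ± 4.40) the spot was above background but not well above it. LuM1 was at least 12.9-fold above Colon26 cells (log2 bound 3.69) and at least 17.4-fold above NM11 cells (log2 bound 4.12), and no ratio was formed between NM11 and Colon26 cells. *Sdc4*, coding for the syndecan of focal adhesions, was lowest in Colon26 cells, with 1889 ± 189 there, 4713 ± 471 in LuM1 and 3512 ± 351 in NM11 cells. The LuM1 level was 2.50-fold that of Colon26 cells (log2 ratio 1.32, error 0.20). The NM11 level was 1.86-fold that of Colon26 cells, short of 2-fold but beyond the scanner error (log2 ratio 0.89), and LuM1 was 1.34-fold above NM11 cells.

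*Gpc1*, coding for glypican-1, was the member that went down in LuM1 cells. Its signal was 29764 ± 2976 in Colon26, 4675 ± 468 in LuM1 and 24034 ± 2403 in NM11 cells. LuM1 cells were 6.37-fold below Colon26 cells (log2 ratio -2.67, error 0.20) and 5.14-fold below NM11 cells (log2 ratio -2.36, error 0.20), while NM11 was closer to Colon26 cells, with a log2 ratio of -0.31.

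**Figure D3:**
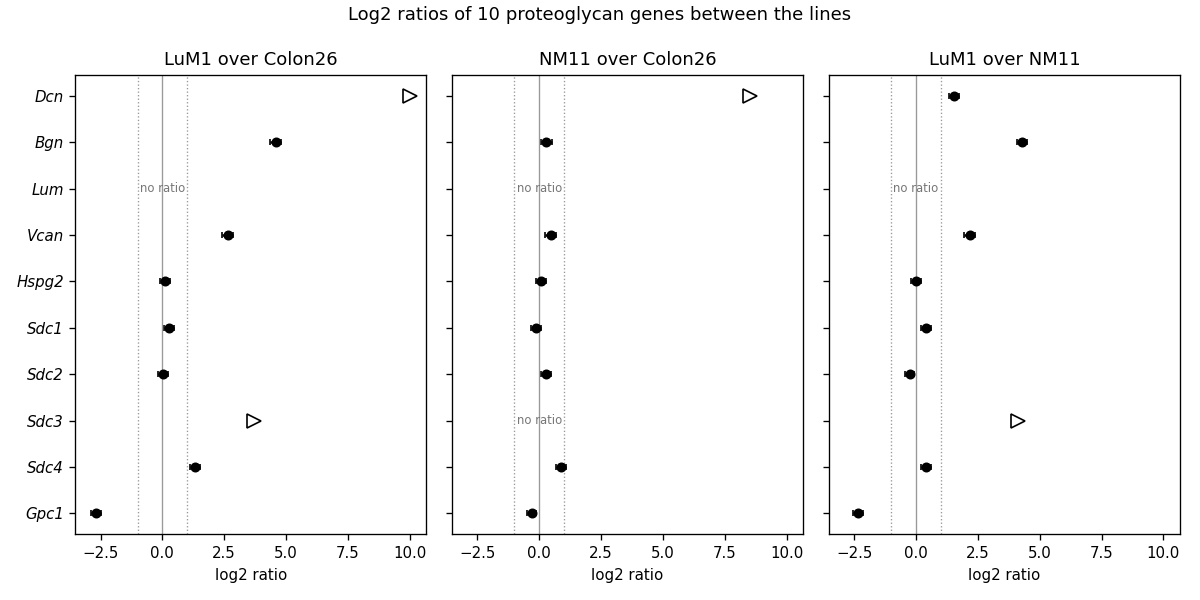
Log2 ratio of each gene between each pair of lines, from its brightest probe by average log2 signal. Bars are the scanner error, and dotted lines mark 2-fold. Open triangles are lower bounds against a line where the gene was not well above background. LuM1 over Colon26 ran from -2.67 for *Gpc1* to a bound of 10.02 for *Dcn*, and in NM11 over Colon26 the *Dcn* bound of 8.51 stood alone past 2-fold.

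Set against all genes of the array, 5 of the 9 members with a ratio of LuM1 to Colon26 were at least 2-fold up (*Dcn*, *Bgn*, *Vcan*, *Sdc3* and *Sdc4*), where 13.1% of 14182 genes were, and 1 was lower (*Gpc1*), where 11.8% of all genes were. Between NM11 and Colon26, 1 of 8 members was higher (*Dcn*) against 8.34% of 13832 genes, and 0 were lower against 7.89%. Between LuM1 and NM11, 4 of 9 members were higher against 11.1% of 14411 genes, and 1 was lower against 8.50%. Relative to both other lines at once, 4 of 9 members were higher in LuM1 cells against 7.33% of 14828 genes, 1 was lower in LuM1 against 4.03%, and 1 (*Dcn*) was lower in Colon26 cells against 4.53%. No member was higher in Colon26 cells or differed in NM11 cells in this way, where the shares among all genes were 4.46%, 2.58% (higher in NM11) and 2.08% (lower in NM11). Over the members measured on both arrays, the median log2 ratio was 0.26 for LuM1 over Colon26 (7 genes), 0.28 for NM11 over Colon26 (7 genes) and 0.40 for LuM1 over NM11 (8 genes), beside medians of -0.13, -0.02 and -0.11 over all genes. With genes at their bounds included, the members' medians were 1.32, 0.29 and 0.42. The comparisons share arrays, so they are not independent of each other. The members were chosen with earlier results of these data known, so these shares describe the members and test nothing.

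The share of higher genes among all called genes depended on the scaling, and so does the background above. For LuM1 over Colon26, 52.5% of the called genes were higher with the 75th percentile and 77.7% with the authors' processed values. For NM11 over Colon26, it was 51.4% and, after scaling to *Hprt*, 20.1%. For LuM1 over NM11, it was 56.6%, and 68.6% without scaling, 67.6% with the 75th percentile of measured probes, 87.8% after scaling to *Hprt* and 81.4% with the authors' values. The members called were those named above under each of 7 other scalings or corrections, except that *Sdc4* passed 2-fold for LuM1 over NM11 after scaling to *Hprt*.

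**Figure D4:**
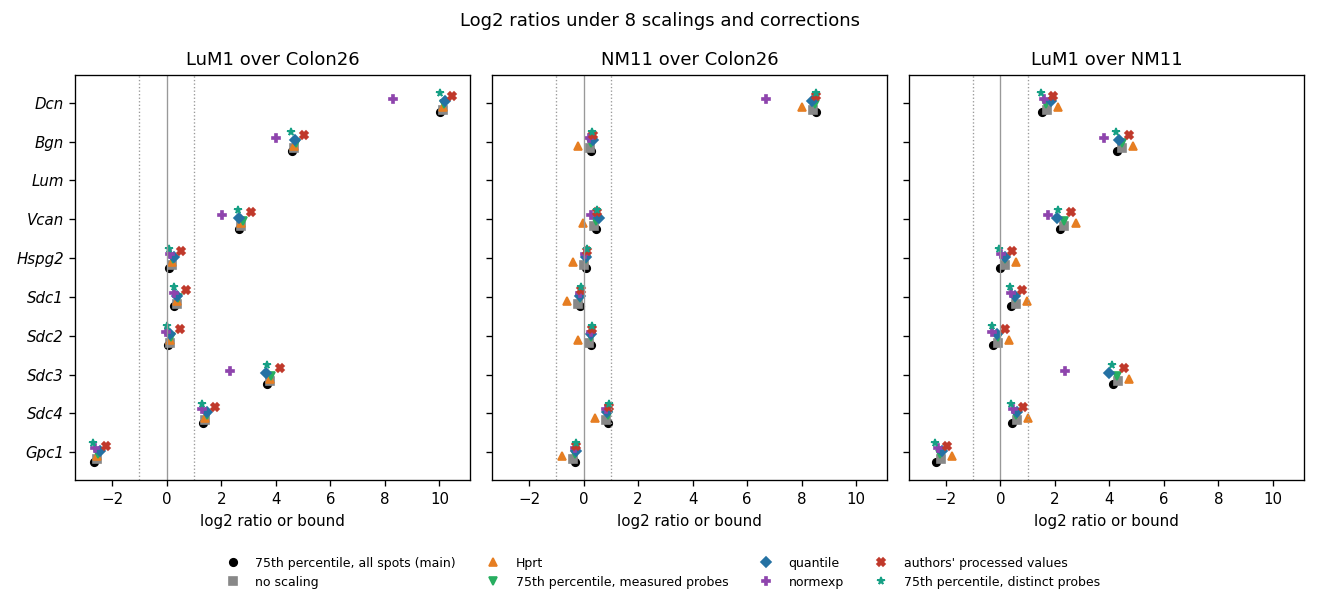
Log2 ratio or bound of each gene in the 3 comparisons under 8 scalings and background corrections, 1 symbol each; dotted lines mark 2-fold, and *Lum* has no value. *Dcn*, *Bgn*, *Vcan*, *Sdc3* and *Gpc1* stayed on their side of 2-fold in LuM1 cells against either other line, and the *Dcn* ratio of LuM1 to Colon26 ranged from at least 313-fold to at least 1418-fold.

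The start regions of the members that rose together in LuM1 cells are shown as far as the reference table held them. Of the 10 members, 6 were matched there (*Bgn*, *Vcan*, *Hspg2*, *Sdc1*, *Sdc3* and *Sdc4*), and *Dcn*, *Lum*, *Sdc2* and *Gpc1* are only named. The 250 bases before the annotated start are given for *Bgn*, *Vcan* and *Sdc3*, the measured genes with the LuM1 increase over either line, and for *Hspg2*, whose level was even, from RefSeq on the mouse assembly GRCm38.p6, 5′ to 3′ on the strand of the gene. Capitals mark GC boxes, the letters GGGCGG on either strand.
*Bgn*, chrX:73483351-73483600 (plus strand): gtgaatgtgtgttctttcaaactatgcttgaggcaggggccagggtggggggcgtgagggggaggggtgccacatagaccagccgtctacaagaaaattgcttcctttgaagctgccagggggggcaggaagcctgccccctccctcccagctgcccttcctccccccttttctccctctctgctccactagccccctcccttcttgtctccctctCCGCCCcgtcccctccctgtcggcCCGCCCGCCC
*Vcan*, chr13:89742513-89742762 (minus strand): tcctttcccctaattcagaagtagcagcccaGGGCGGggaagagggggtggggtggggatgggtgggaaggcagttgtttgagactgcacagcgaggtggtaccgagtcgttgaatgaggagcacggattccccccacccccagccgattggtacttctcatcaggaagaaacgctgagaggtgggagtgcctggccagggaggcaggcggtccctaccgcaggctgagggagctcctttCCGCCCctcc
*Sdc3*, chr4:130792287-130792536 (plus strand): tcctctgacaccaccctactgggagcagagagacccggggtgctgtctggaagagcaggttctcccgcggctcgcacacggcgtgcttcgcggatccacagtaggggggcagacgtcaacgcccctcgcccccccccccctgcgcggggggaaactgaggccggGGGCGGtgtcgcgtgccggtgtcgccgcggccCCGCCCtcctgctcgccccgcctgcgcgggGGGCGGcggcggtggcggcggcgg
*Hspg2*, chr4:137468553-137468802 (plus strand): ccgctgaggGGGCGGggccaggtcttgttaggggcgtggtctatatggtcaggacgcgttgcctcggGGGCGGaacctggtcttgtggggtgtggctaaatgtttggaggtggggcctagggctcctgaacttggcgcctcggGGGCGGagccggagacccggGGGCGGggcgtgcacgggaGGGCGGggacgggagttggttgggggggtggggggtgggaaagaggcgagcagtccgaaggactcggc
*Bgn* held 3 GC boxes, beginning 34, 10 and 6 bases before the start, the last pair overlapping. *Vcan* held 2, at 219 and 10 bases before the start, *Sdc3* held 3, at 86, 54 and 24 bases, and *Hspg2* held 5. The regions of *Sdc1* and *Sdc4*, not printed, held 3 and 4. Such a box occurred in 32.7% of 32851 mouse promoter windows of this length. The GC content was 64.4% for *Bgn*, 62.4% for *Vcan*, 76.4% for *Sdc3* and 70.0% for *Hspg2*. A TATA box (TATAAA), an AP-1 site (TGANTCA) and an E-box (CACGTG), searched on both strands, occurred in 0 of the 6 windows, where 12.4%, 6.75% and 6.02% of all windows held them. The genes that rose in LuM1 cells and those that were even both held GC boxes, and these letter matches are descriptions of the sequence, not evidence of binding.

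The chains of proteoglycans are built by enzymes in the Golgi apparatus, starting from a linker of 4 sugars that heparan sulfate and chondroitin sulfate share. Of 7 linker genes, 2 were higher in LuM1 than in Colon26 cells and 1 in NM11 than in Colon26 cells. Between LuM1 and NM11, 1 was higher in LuM1 cells, and none was lower in any comparison. Over all genes, 13.1%, 8.34% and 11.1% were higher in these comparisons, and 11.8%, 7.89% and 8.50% were lower. Under the other scalings and corrections, up to 2 linker genes were higher in LuM1 than in NM11 cells. Up to 1 was lower in NM11 than in Colon26 cells (*Xylt2*, after scaling to *Hprt*). *B4galt7*, which adds the first galactose, was 112 ± 12.4 in Colon26, 458 ± 46.0 in LuM1 and 167 ± 17.2 in NM11 cells, so LuM1 was 4.10-fold and 2.74-fold higher. *Pxylp1*, which removes the phosphate from the linker's xylose, was 105 in Colon26, 564 in LuM1 and 555 in NM11 cells, 5.36-fold and 5.28-fold above Colon26. A further *Pxylp1* probe was above background on no array. Median log2 ratios of the linker genes measured on both arrays were 0.26, 0.30 and 0.07 for LuM1 over Colon26, NM11 over Colon26 and LuM1 over NM11.

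The 5 genes that polymerize heparan sulfate lay within 2-fold of Colon26 in both sublines with the 75th percentile, and *Ext1*, named here after its values were seen, was 2.35-fold lower in LuM1 (911) than in NM11 cells (2140), a call lost after scaling to *Hprt* and with the authors' processed values. Under the other scalings and corrections, up to 2 polymerization genes were higher in LuM1 than in NM11 cells and up to 1 was lower in NM11 than in Colon26 cells. Of 17 heparan sulfate modification genes, 7 were well above background in no line, where 8083 of all 22911 named genes were. *Ndst3*, an N-deacetylase and N-sulfotransferase, was 17.0 and not well above background in Colon26, 333 ± 33.6 in LuM1 and 87.1 ± 9.67 in NM11 cells. It was at least 12.6-fold and at least 3.30-fold above Colon26, and LuM1 was 3.83-fold above NM11 cells. Its dimmer probe gave at least 3.52-fold, at least 1.65-fold and 2.13-fold, so for NM11 over Colon26 that probe stayed short of 2-fold. The call for NM11 over Colon26 was lost with normexp. *Glce*, the epimerase that makes iduronic acid, was 5706 in Colon26, 2134 in LuM1 and 5524 in NM11 cells, 2.67-fold and 2.59-fold lower in LuM1 cells. Its other probes gave 2.26-fold and 2.45-fold below Colon26 cells. The *Glce* call was lost with the authors' processed values and, against NM11, also after scaling to *Hprt*. *Sulf2*, a secreted enzyme that removes sulfate from finished heparan sulfate, was lowest in NM11 cells: 1239 ± 124 in Colon26, 1751 ± 175 in LuM1 and 48.9 ± 6.32 in NM11 cells, 25.3-fold below Colon26 and 35.8-fold below LuM1 cells. *Hs6st3*, a 6-O-sulfotransferase, passed the detection call in Colon26 cells only (56.0 ± 8.31), at least 2.78-fold above LuM1 and at least 2.86-fold above NM11 cells, calls that were lost with normexp background correction. A further *Hs6st3* probe was above background on no array.

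Of 16 genes of chondroitin and dermatan sulfate synthesis, 5 were well above background in no line, where 8083 of all 22911 named genes were. Of the 11 with a ratio, 3 were higher in LuM1 than in Colon26 cells, 3 in NM11 than in Colon26 cells, and 3 were higher and 1 lower in LuM1 than in NM11 cells. Over all genes, 13.1%, 8.34% and 11.1% were higher in these comparisons, and 8.50% were lower in the last. *Csgalnact1*, which starts the chondroitin chain, had the pattern of *Dcn* with LuM1 on top: 19.2 and not well above background in Colon26, 1135 ± 114 in LuM1 and 181 ± 18.6 in NM11 cells. It was at least 43.0-fold and at least 6.87-fold above Colon26, and LuM1 was 6.26-fold above NM11 cells. *Chst12*, a chondroitin 4-O-sulfotransferase, was 191 ± 20.0, 756 ± 75.7 and 351 ± 35.4, so LuM1 exceeded Colon26 cells 3.95-fold and NM11 cells 2.15-fold, the latter lost with normexp. *Chst11*, of the same activity, was 35.1, 154 and 96.9, 4.40-fold and 2.76-fold above Colon26 in LuM1 and NM11 cells. A second probe for it gave at least 1.06-fold and no ratio, both calls were lost with normexp, and that for NM11 over Colon26 also after scaling to *Hprt*. *Chst15*, which adds a further sulfate to chondroitin 4-sulfate, was highest in NM11 cells, with 331 ± 33.6 in Colon26, 402 ± 40.5 in LuM1 and 2028 ± 203 in NM11 cells, 6.13-fold above Colon26 and 5.04-fold above LuM1 cells. Across the list, the median log2 ratio of genes measured on both arrays was 0.30 for LuM1 over Colon26, -0.21 for NM11 over Colon26 and 0.33 for LuM1 over NM11.

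**Figure D5:**
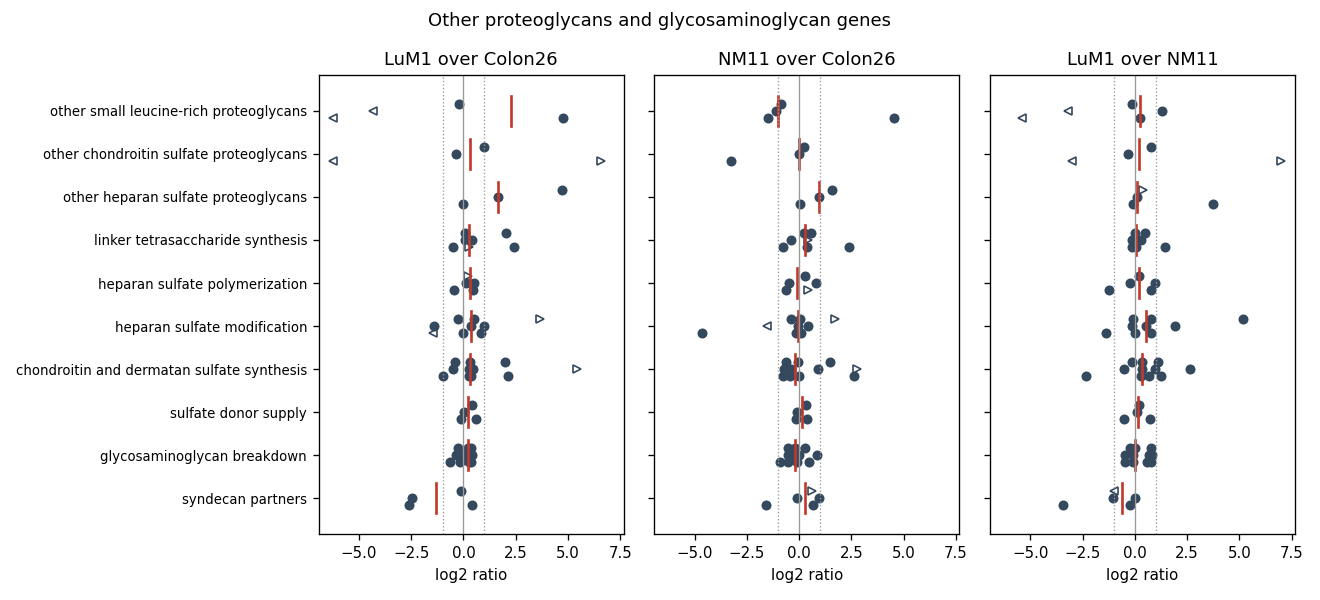
Log2 ratio between lines for other proteoglycan genes and for genes of glycosaminoglycan synthesis, breakdown and syndecan binding, 1 symbol per gene with a ratio; open triangles are bounds, dotted lines mark 2-fold and the red line is the median of genes measured on both arrays. Genes of glycosaminoglycan breakdown and sulfate donor supply lay within 2-fold in each comparison at this scaling (not under all others), whereas other proteoglycans reached bounds of -6.26 (*Ogn*) and 6.56 (*Srgn*) for LuM1 over Colon26.

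None of the 11 measured lysosomal and heparanase genes of glycosaminoglycan breakdown passed 2-fold in any comparison with the 75th percentile, with log2 ratios between -0.66 and 0.42 for LuM1 over Colon26, between -0.93 and 0.83 for NM11 over Colon26 and between -0.49 and 0.81 for LuM1 over NM11. Under the other scalings and corrections up to 4 of them were lower in NM11 than in Colon26 cells and up to 5 higher in LuM1 than in NM11 cells. *Hpse*, coding for heparanase, the enzyme that cuts heparan sulfate chains outside and inside the cell, gave 3332 in Colon26, 3820 in LuM1 and 2279 in NM11 cells. The 4 genes of sulfate donor supply on the array also lay within 2-fold at this scaling, with median log2 ratios of 0.22, 0.11 and 0.15 for LuM1 over Colon26, NM11 over Colon26 and LuM1 over NM11. The sulfate transporter gene *Slc26a2* passed 2-fold with the authors' processed values in LuM1 over Colon26 and, there and after scaling to *Hprt*, in LuM1 over NM11.

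Of 5 genes whose products bind the cytoplasmic part of syndecans or act beneath them, 2 fell in LuM1 cells against either other line. Over all genes, 4.03% of 14828 were lower in LuM1 cells in this way. *Cask*, a membrane scaffold that binds the tails of syndecans, was 622 in Colon26, 111 in LuM1 and 1193 in NM11 cells, 5.59-fold and 10.7-fold lower in LuM1 cells. A dimmer *Cask* probe gave at least 1.44-fold and at least 2.63-fold lower, and the remaining probe was well above background on no array. *Sdcbp2*, coding for syntenin-2, was 376, 62.2 and 127, 6.04-fold lower in LuM1 and 2.97-fold lower in NM11 than in Colon26 cells. Its difference between LuM1 and NM11 cells, 2.04-fold lower, was lost under 5 of the 7 other scalings or corrections. *Sdcbp*, coding for syntenin-1, a partner of syndecans in vesicle formation, was 926, 1243 and 1457 and within 2-fold.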

How the data were processed

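Total RNA (0.1 µg per line) was labelled with Cy3 and hybridized to SurePrint G3 mouse arrays, 1 per line. The authors deposited the intensity of each spot from Agilent Feature Extraction 11.5.1.1, already background-subtracted and detrended but not scaled between arrays, with its error, and flags (0 or 1, an other unit) for outliers, saturation and detection. A table of processed intensity values deposited for the series equals these intensities times 1 factor per array (0.654, 0.829 and 0.706 for Colon26, LuM1 and NM11) and served as an alternative. Each scaling other than quantile normalization multiplies all ratios between a pair of arrays by 1 factor. Quantile normalization and the normexp correction change ratios by differing amounts.

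Control spots were left out, as were outliers among the non-control spots (137, 74 and 99 in Colon26, LuM1 and NM11). Repeat spots of a probe were averaged, and arrays were scaled to the 75th percentile of their 59305 non-control spots (581.1, 625.1 and 551.5 before scaling). RefSeq accessions (GRCm38.p6) gave gene names to 58.3% of 56605 probes. The array was designed on another assembly, so coordinates are given only for the printed start regions, on GRCm38.p6. Each gene was read by its brightest probe (mean log2 over the arrays). Repeat spots varied by a median SD of 0.035 to 0.040 (log2); the number of arrays limits the precision. Ratios carry the combined scanner error of both spots.

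Members and gene lists were chosen with earlier results of these data known. Every member is named. By rule, a gene of another list is named where 1 line differed at least 2-fold from both others, up to 6 per list. Some genes were named outside this rule, among them *Agrn*, *Gpc3*, *Ext1*, *Hpse*, *Slc26a2*, *Sdcbp*, *Vim*, *Epcam*, *Cdx2* and *Acta2*. Other settings compared were no scaling, scaling to *Hprt*, the 75th percentile over probes well above background on all arrays, quantile normalization, normexp (offset 50, on median spot intensity, the column used here), the authors' values, looser detection, use of all dim probes, averaging of the probes of a gene, and a 4-fold rule. The percentile over distinct probes was added after seeing the data. Python 3.11.15, numpy 2.4.6, pandas 2.3.3, matplotlib 3.10.9, and R 4.3.3 with limma 3.58.1 (normexp) were used. Other experiments of the study were not analysed here.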

Additional observations from a re-analysis of the deposited data

How the results depend on the processing

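No paired analysis was possible because each line had 1 array. Of 66 counts of called members under the 11 alternatives, 63 stayed within 1.5 times the count given, and 3 moved. These all concern members at least 2-fold higher in NM11 than in Colon26 cells: 2 in place of 1 with the looser detection rule and with no filter on dim probes (*Dcn* and *Sdc3*), and 2 when probes of a gene were averaged (*Dcn* and *Vcan*). The first pair of settings admits the dim *Sdc3* spots, and the last adds the *Vcan* probe with a bound of 5.66-fold. With the 4-fold rule, *Sdc4* left the members higher in LuM1 than in Colon26 cells and *Dcn* left those higher in LuM1 than in NM11 cells. No ratio past 2-fold changed its sign under any of them. Of 260 member ratios recomputed, 208 stayed within the combined scanner error of both spots and 52 moved by more. This count includes bounds, where the dim spot carries a wide error. The log2 bound of *Sdc3* for LuM1 over Colon26, for example, went from 3.69 to 2.32 with normexp and is counted as within it. The settings of detection and probe averaging also leave many ratios unchanged by construction, so the count does not measure stability. Under 1 or more settings, 7 small ratios changed sign. These were *Sdc2* in each comparison, *Bgn*, *Vcan* and *Hspg2* for NM11 over Colon26, and *Hspg2* for LuM1 over NM11, which was 0.997-fold.

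Under the other scalings and corrections, *Bgn* ranged from 15.9-fold to 32.7-fold for LuM1 over Colon26 and from 13.8-fold to 29.4-fold for LuM1 over NM11. *Vcan* ranged from 4.08-fold to 8.51-fold and from 3.39-fold to 6.77-fold, and *Sdc4* from 2.43-fold to 3.41-fold and from 1.30-fold to 2.01-fold. The *Sdc3* bounds ranged from 4.99-fold to 17.6-fold and from 5.13-fold to 26.2-fold, lowest with normexp. The median log2 ratio over all genes shifted by 0.45 (authors' values), 0.15 (75th percentile of measured probes), 0.11 (no scaling) and 0.10 (*Hprt*) for LuM1 over Colon26, by -0.49 (*Hprt*) for NM11 over Colon26, and by 0.59 (*Hprt*), 0.41 (authors' values), 0.18 (no scaling) and 0.16 (75th percentile of measured probes) for LuM1 over NM11. *Dcn* in Colon26 cells, *Sdc3* in Colon26 and NM11 cells and *Lum* in every line were not well above background, so their order there is unknown. Among other lists, genes higher in LuM1 than in NM11 cells numbered 2 to 5 for heparan sulfate modification and 2 to 5 for chondroitin and dermatan sulfate synthesis over these settings, and 0 to 3 of the latter were lower in NM11 than in Colon26 cells.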

Other observations

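Of 4 endothelium markers, *Cdh5*, *Kdr* and *Tek* were well above background on no array, and the summed signal of the list was 68.5 in Colon26, 66.0 in LuM1 and 93.9 in NM11 cells. Of 4 smooth muscle markers, 2 were well above background in Colon26, 3 in LuM1 and 2 in NM11 cells, with *Cnn1* so in none. *Acta2*, coding for smooth muscle actin, was 11294, 10708 and 12569 in Colon26, LuM1 and NM11 cells, and the summed signal of the list was 11654, 11106 and 13028.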
